A study of Mus musculus with 5 samples.

Results

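The PM10/OVA/CPX lung was compared with the control lung to see which differences that came with PM10 and OVA exposure remained in the presence of the inhibitor. These are 2 of the 5 libraries of the series, taken by their treatment labels. Earlier results of these data were known when the comparison and the gene lists were chosen. Whole lung of wild-type female BALB/c mice was RNA-sequenced, 1 library per group. Mice labelled with no treatment are called control. The other groups received PM10 (inhalable airborne particulate matter), PM10 with ovalbumin (OVA, an egg-white protein used as an allergen), or PM10 and OVA together with either an inhibitor of chitinase-1 (CPX) or dexamethasone (Dex, a synthetic glucocorticoid). PM10 went into the nose 4 times within 2 weeks. OVA was first injected into the abdomen and later given through the nose. CPX was injected into the abdomen 6 times within 3 weeks, Dex 3 times in the final week, and lungs were collected 2 days after the last challenge. Below, PM10/OVA/CPX is called the inhibitor library and PM10/OVA the exposed library, a value "with PM10" is from the library with PM10 and no OVA, and one "with Dex" from PM10/OVA/Dex. The sources used here do not give doses, ages, what control mice received in place of the treatments, or whether a library stands for 1 mouse or a pool.

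Inhaled allergen in a sensitised mouse draws T helper 2 cells into the airway wall, and their cytokines interleukin-4 and interleukin-13 act through the transcription factor STAT6. Airway epithelium then turns to mucus secretion, macrophages turn to an alternatively activated state, and chemokines of the eotaxin group attract eosinophils. Particles and bacterial products call on another branch, in which macrophages and epithelium use NF-kB to make chemokines for neutrophils and monocytes and acute-phase proteins. Chitinases cut chitin, chitinase-like lectins bind sugars without cutting them, and several genes of this family are well known in allergic mouse lung.

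The libraries held between 11993222 and 16929068 counts, with 16929068 in control and 12612578 in the inhibitor library. Levels are CPM, that is counts brought to the same library size with TMM factors, which ran from 0.989 to 1.02. The 14305 genes whose average over the 5 libraries reached 1 CPM were measured. A gene counted as higher or lower when log2(CPM + 1) differed by at least 1 (2-fold). A fold is a ratio of CPM, followed by an exact 95% interval from the counts, which covers counting error only. No group had replicates, so no difference has a replicate check, no test between conditions was made, and differences between individual lungs cannot be told apart from differences between treatments. In whole lung, more cells of a type and more RNA per cell cannot be told apart either. Sftpc and Scgb1a1, defining genes of alveolar type 2 and club cells that were chosen after their values were seen, were abundant in both libraries, at 12728 and 13412 CPM for Sftpc and at 20963 and 20501 CPM for Scgb1a1.

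The control library stood apart in genes of tissues that border the lung. Of 51 measured genes of heart muscle, skeletal muscle, fat and cartilage, 48 were highest in control, and their summed level was 7510 CPM there against 2344 with PM10, 1699 in the exposed library, 2040 in the inhibitor library and 2220 with Dex. They made up 0.769% of control counts and 0.203% of those of the inhibitor library. The lists differed: heart-muscle genes summed to 3972 CPM in control and 331 in the inhibitor library, and fat genes to 3282 and 1637. Fat genes thus made up most of the inhibitor sum, and whether these came from fat alone was not tested. Of the genes lower in the inhibitor library than in control, 44 were on these lists, and none of the higher genes was.

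The inhibitor library had 391 genes higher than control (2.73% of the measured genes) and 428 lower (2.99%). Without the bordering-tissue lists the counts were 391 and 384. The exposed library had 454 genes higher than control (3.17%) and 390 lower (2.73%). These are called exposure-higher and exposure-lower genes. Both comparisons use the same control library, so a gene that is unusual in control enters both. On the log2(CPM + 1) scale, 78 genes were at least 4-fold higher in the inhibitor library than in control and 150 at least 4-fold lower, and 23 and 36 of these were at least 10-fold higher and lower. The plot of ratio against level shows that the higher genes with the largest ratios, led by Clca1, included abundant genes such as Chil3 and Retnla and low ones such as Sprr2a3 and Amd1, while the lowest ratios belonged to the heart hormone Nppa and to cartilage genes.

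**Figure D1:**
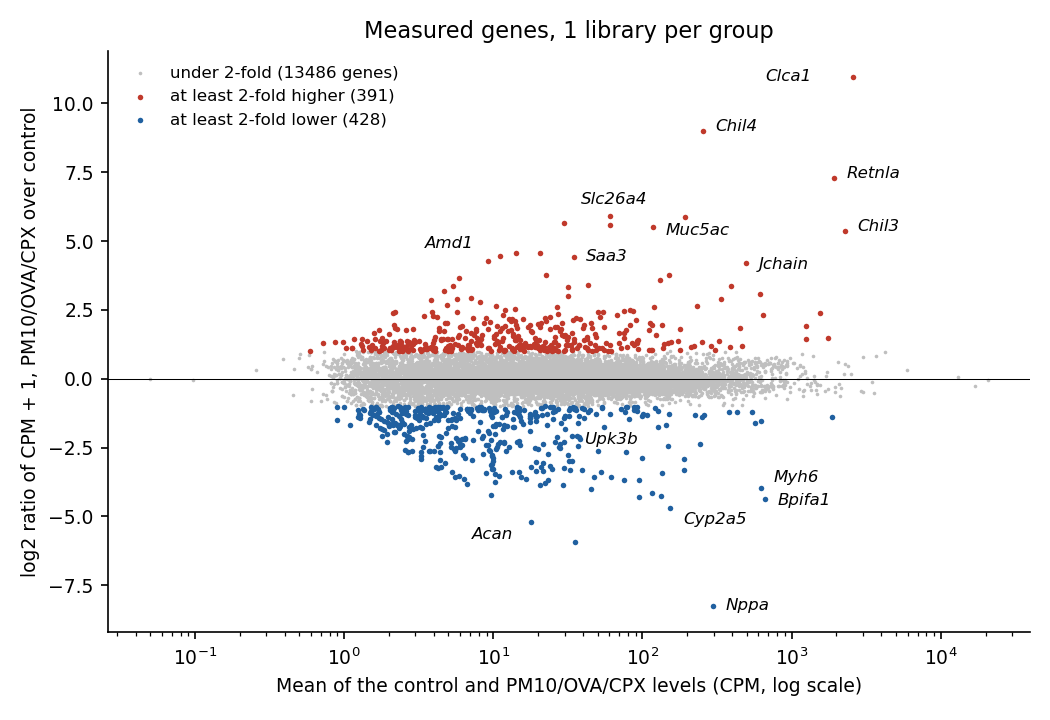
The log2 ratio of CPM + 1 of the inhibitor library over control (vertical axis) is plotted against the mean level of both libraries in CPM (horizontal log axis) for 14305 genes, each point 1 gene, with 391 higher genes in red and 428 lower genes in blue. Clca1 lies highest at 10.95 and Nppa lowest at -8.25.

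Of the 454 exposure-higher genes, 250 (55.1%) were still at least 2-fold above control in the inhibitor library. Another 136 had come under 2-fold but stayed at least 1.5-fold above control, 67 lay within 1.5-fold of control in either direction, and 1, the neural cell adhesion gene Chl1, was lower than control. Chl1 is named outside the naming rule given below, as the only gene of its class. It was at 5.36 CPM in control, 6.05 with PM10, 20.2 in the exposed library, 1.84 in the inhibitor library and 3.11 with Dex. The median log2 ratio of the 454 genes to control was 1.40 in the exposed library and 1.10 in the inhibitor library. Of the 390 exposure-lower genes, 303 (77.7%) were still at least 2-fold below control, 59 were between 1.5-fold and 2-fold below, and 28 were within 1.5-fold. Their median was -1.59 in the exposed library and -1.60 in the inhibitor library. Among the 250 higher genes that remained, 114 had a larger ratio to control with the inhibitor than without and 136 a smaller one, and the inhibitor library was at least 2-fold above the exposed one for 20 of them and at least 2-fold below it for 26. Of the 303 lower genes that remained, 297 were within 2-fold of the exposed library. The inhibitor library added 141 higher genes that were not exposure-higher and 125 lower genes that were not exposure-lower, and Chl1 was among the latter.

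**Figure D2:**
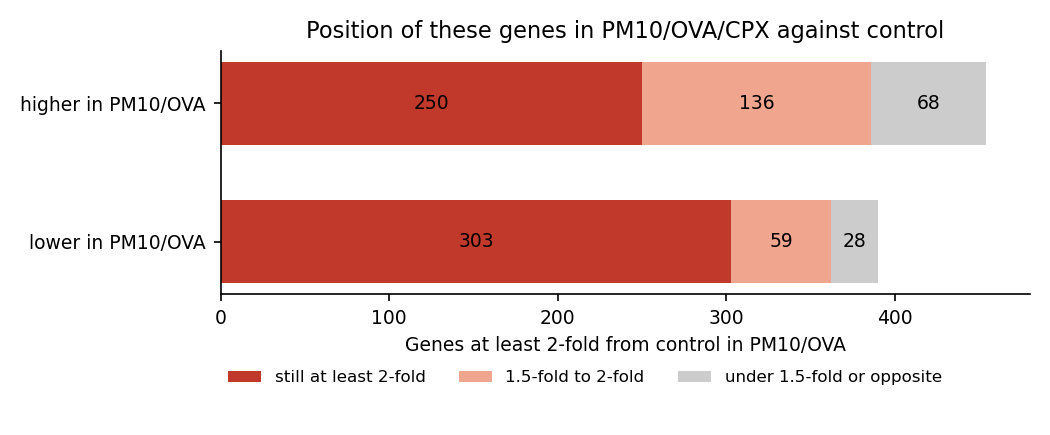
Bars count the genes that were at least 2-fold from control in the exposed library (horizontal axis, number of genes), split by where they lay against control in the inhibitor library. A larger part of the lower genes (303 of 390) than of the higher genes (250 of 454) was still at least 2-fold from control.

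The genes nearest the 2-fold limit were as follows. Slc36a4, an amino acid transporter at 7.55 CPM in control and 16.1 in the inhibitor library, and the acute-phase gene Orm2, at 0.0577 and 1.12 CPM, were just inside the limit for higher genes. Tdo2, a tryptophan-degrading enzyme at 0.980 and 2.95 CPM, was just outside. For lower genes, Mst1 (3.40 and 1.20 CPM) and the ion channel gene Tmem38a (30.2 and 14.5 CPM) were just inside, and the growth factor gene Nrg4 and the sodium channel gene Scn4a (each 3.23 and 1.12 CPM) were just outside.

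The family of the inhibitor's named target stood among the largest differences. No library had a count of Chit1, which encodes chitinase-1 (protein-coding, GRCm38 chromosome 1, 134111242 to 134151540). A floor of 3 counts would be 0.173 CPM in control and 0.240 CPM in the inhibitor library. Of 6 measured chitinase and chitinase-like genes, 4 were higher than control with the inhibitor and 3 in the exposed library, and the median log2 ratios were 2.63 and 1.57, where the median of all measured genes was 0.02 and 0.01. With no filter on low counts the chitinase median with the inhibitor was 1.25. Chil3, a lectin made by macrophages (chromosome 3, 106147554 to 106167564, minus strand), was at 108 CPM in control, 309 with PM10, 510 in the exposed library, 4455 in the inhibitor library and 1427 with Dex. Its neighbour Chil4, a lectin known from allergic airway epithelium (106201490 to 106219507, minus strand), had no count in control or PM10 and was at 3.53 CPM in the exposed library, 507 in the inhibitor library and 40.8 with Dex. Both were highest in the inhibitor library. Against control, Chil3 was 41.1-fold higher (39.2 to 43.0), and Chil4 was at least 2929-fold higher with the floor of 3 counts in control, with an exact lower limit of 2381.

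The promoters of Chil3, Chil4 and Retnla are shown because these 3 type 2 genes are among the 15 highest ratios. Clca1 and Muc5ac are named only. RefSeq gives, on GRCm38, the 250 bases before the transcription start of Chil3 (chr3:106167565-106167814, minus strand), Chil4 (chr3:106219480-106219729, minus strand) and Retnla (chr16:48842359-48842608, plus strand), read 5′ to 3′ along each gene. Capitals mark a match to the STAT6 site TTCNNNNGAA, searched on both strands.
Chil3 promoter: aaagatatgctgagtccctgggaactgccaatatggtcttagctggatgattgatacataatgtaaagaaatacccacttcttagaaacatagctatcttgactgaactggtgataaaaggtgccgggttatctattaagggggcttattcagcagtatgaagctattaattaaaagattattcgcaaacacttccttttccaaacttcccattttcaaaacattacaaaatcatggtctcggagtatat
Chil4 promoter: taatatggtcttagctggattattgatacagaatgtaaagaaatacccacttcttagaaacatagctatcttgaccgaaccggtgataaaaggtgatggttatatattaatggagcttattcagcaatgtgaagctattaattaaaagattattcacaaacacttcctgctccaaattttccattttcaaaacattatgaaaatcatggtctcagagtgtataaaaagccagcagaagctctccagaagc
Retnla promoter: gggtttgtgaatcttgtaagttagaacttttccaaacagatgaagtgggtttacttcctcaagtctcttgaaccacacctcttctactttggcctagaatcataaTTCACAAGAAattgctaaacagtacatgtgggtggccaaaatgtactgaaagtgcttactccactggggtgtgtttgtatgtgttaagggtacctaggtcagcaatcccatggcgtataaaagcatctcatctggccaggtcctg
The Retnla window held 1 match, which began 145 bases before the start, and the Chil3 and Chil4 windows held none. Of 32851 RefSeq promoters of this length, 5.85% held the site, so a match is a description of these letters only. The Chil3 and Chil4 windows were 72.0% identical (201 of 279 aligned columns), and 18.5% of the 50-base words of the Chil3 transcript also occur in Chil4. How reads that fit both genes were counted is not known, so the split between them is uncertain. Their sum was 108 CPM in control, 309 with PM10, 513 in the exposed library, 4961 in the inhibitor library and 1467 with Dex, with the same order of libraries.

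Chia1 and Chil1, the other family members past the limit, took separate courses. Chia1, which encodes acidic mammalian chitinase (chromosome 3, 106113229 to 106132120), was at 79.9 CPM in control, 57.9 with PM10, 157 in the exposed library, 596 in the inhibitor library and 268 with Dex. It was 7.46-fold above control with the inhibitor (7.05 to 7.91) and just under 2-fold above it in the exposed library (1.97, interval 1.84 to 2.11). Chil1, a lectin of macrophages and epithelium (chromosome 1, 134182176 to 134190181), was at 499 CPM in control, 2065 with PM10, 3067 in the exposed library, 2611 in the inhibitor library and 1533 with Dex, so its exposure difference remained at 5.23-fold (5.11 to 5.36). Chid1 and Ctbs, the latter a lysosomal enzyme, were within 1.5-fold of control.

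Genes of airway mucus had the largest share of higher members among the 53 lists, 83.3%, where 2.73% of all measured genes were higher. The lists were chosen with earlier results of these data known, so this ranking is a description only. Of 18 measured mucous-cell products, 15 were higher than control in the inhibitor library and none lower, against 10 in the exposed library, and the median log2 ratio was 2.06 against 1.08. Clca1, a secreted metalloprotease of mucous cells (chromosome 3, 145003817 to 145032776), was at 1.61 CPM in control, 7.12 with PM10, 313 in the exposed library, 5154 in the inhibitor library and 1633 with Dex. That is 3193-fold above control (2209 to 4805) on 64551 counts against 28, and 16.5-fold above the exposed library (16 to 17). Muc5ac, the gel-forming mucin of airway goblet cells (chromosome 7, 141788972 to 141819231), was at 4.09 CPM in control, 11.0 with PM10, 30.6 in the exposed library, 231 in the inhibitor library and 92.9 with Dex. The 56.5-fold ratio to control (44.6 to 72.5) compares with 7.47-fold (5.82 to 9.73) in the exposed library. For both genes the inhibitor library was the highest of the 5 and the Dex library the next.

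Other secretory genes shared that order, and the anion exchanger did not. Itln1, a sugar-binding lectin in mucus, was at 0.75 CPM in control, 0.994 with PM10, 3.91 in the exposed library, 40.2 in the inhibitor library and 9.17 with Dex, a 53.6-fold ratio (31.1 to 101). Tff2, a trefoil peptide of mucus, was 12.1-fold above control (9.99 to 14.9) and 3.18-fold above the exposed library (2.83 to 3.59). Fcgbp, a mucus protein that binds mucins, was at 19.8 CPM in control, 7.54 with PM10, 36.3 in the exposed library, 283 in the inhibitor library and 119 with Dex, so it passed 2-fold with the inhibitor and not in the exposed library (14.3-fold, 12.8 to 16). Slc26a4, the anion exchanger pendrin, was at 1.04 CPM in control, 19.6 with PM10, 90.7 in the exposed library, 121 in the inhibitor library and 31.4 with Dex. Its 117-fold ratio to control (73.8 to 198) was already 87.4-fold (55.1 to 148) without the inhibitor. Sprr2a3, a small cornified-envelope protein with close relatives in the genome, had no count in control and was at 18.4 CPM with the inhibitor, at least 106-fold higher with an exact lower limit of 85.7. Of 18 measured interleukin-13-responsive epithelial genes, a list that overlaps the mucous one, 14 were higher in the inhibitor library and 11 in the exposed one, with medians of 2.06 and 1.20.

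Of the measured genes of the type 2 signal itself, few passed the limit, as did 2.73% of all measured genes for higher and 2.99% for lower. The list holds 18 type 2 cytokines and receptors, of which 11 reached an average of 1 CPM. The others were too low to be measured, so their change is not known. Among the 11 measured genes, 1 was higher with the inhibitor and none lower, with a median of 0.19. That gene was Il1rl1, the receptor for interleukin-33, at 6.46 CPM in control and 20.8 in the inhibitor library (3.23-fold, 2.58 to 4.06). Il33, an epithelial alarm cytokine, was at 74.0 CPM in control, 133 with PM10, 232 in the exposed library, 136 in the inhibitor library and 121 with Dex, and so came under 2-fold of control (1.84, interval 1.71 to 1.98). Tslp, another epithelial cytokine of this branch, was at 4.67 CPM in control and 2.56 with the inhibitor. Il4ra, a receptor chain for interleukin-4 and interleukin-13, was at 144 and 169 CPM.

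Chemokines that attract eosinophils and T helper 2 cells, and genes of eosinophils, were mostly above control in both libraries. Of 7 measured eotaxins and T helper 2 chemokines and receptors, 5 were higher with the inhibitor and 6 in the exposed library, with medians of 1.98 and 2.26. With no filter on low counts the median with the inhibitor was 0.57. Ccl8, a ligand for T helper 2 cells in mice, was at 1.5 CPM in control, 29.9 with PM10, 69.3 in the exposed library, 120 in the inhibitor library and 94.8 with Dex (80.1-fold, 54.4 to 123). Ccl11, eotaxin-1, was at 4.90 CPM in control, 4.97 with PM10, 27.3 in the exposed library, 58 in the inhibitor library and 25.5 with Dex (11.8-fold, 9.45 to 15). Both were highest in the inhibitor library. Ccl24, eotaxin-2, went the other way and was at 2.25 CPM in control, 9.78 in the exposed library and 3.83 in the inhibitor library. Ccl22 and Ccl17, macrophage and dendritic cell chemokines, were 2.66-fold (1.77 to 4.05) and 9.40-fold (5.78 to 16.1) above control, with levels below those of the exposed library.

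Of 9 measured eosinophil genes, 7 were higher with the inhibitor and 4 in the exposed library, with medians of 1.54 and 0.70 and summed levels of 508 CPM against 229, where control had 162. Ear2, which is also on the alveolar macrophage list, made up 279 CPM of the sum with the inhibitor and 101 CPM of the exposed sum. It was 3.48-fold above control with the inhibitor (3.27 to 3.71). The sums are therefore not specific to eosinophils. Prg2, the major basic protein of eosinophil granules, was at 0.115 CPM in control, 0.0828 with PM10, 2.78 in the exposed library, 10.6 in the inhibitor library and 1.01 with Dex. Its ratio of 92.1 rests on 2 counts in control and has an interval of 25 to 768. Ccr3, the eotaxin receptor, was 4.33-fold above control (3.54 to 5.31), and Siglecf, a surface lectin shared with alveolar macrophages, 3.03-fold (2.61 to 3.52). Rnase2a, a ribonuclease of the eosinophil granule family, was at 0.173 CPM in control, 0.331 with PM10, 15 in the exposed library, 58.9 in the inhibitor library and 34.3 with Dex, on 738 counts against 3 (ratio 341, interval 116 to 1656). The ribonuclease genes of this family are close copies of each other, so single values are uncertain. Mast cell and basophil genes went in both directions, with 3 of 11 higher and 2 lower. Mcpt1 and Mcpt2, mucosal mast cell proteases, were higher at 2.40 and 2.16 CPM, and were at 2.86 and 2.77 CPM with Dex. These rest on 30 counts against 4 in control (interval 3.66 to 40.6) and 27 against 3 (3.84 to 64.2). The other higher member was Il1rl1, which is also on the type 2 list. Tpsb2 and Cma1, connective tissue mast cell proteases, were lower (3.66-fold, 2.05 to 7.04, and 3.00-fold, 1.95 to 4.74).

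About as many genes of alternatively activated macrophages were above the limit with the inhibitor as without. Of 16 measured alternatively activated macrophage genes, 8 were higher with the inhibitor and 9 in the exposed library, 8 of them in both. Retnla, a secreted resistin-like protein (chromosome 16, 48842551 to 48844461), was at 23.7 CPM in control, 242 with PM10, 1857 in the exposed library, 3846 in the inhibitor library and 1906 with Dex, 162-fold above control (147 to 179) and 2.07-fold above the exposed library (2.04 to 2.10). Arg1, the arginine-degrading enzyme of the same macrophage state (chromosome 10, 24915221 to 24927484), was at 2.54 CPM in control, 2.98 with PM10, 104 in the exposed library, 10.6 in the inhibitor library and 5.63 with Dex. Its exposure difference of 41.2-fold (30.5 to 56.9) remained as 4.19-fold (2.96 to 6.03). So the list's members lay on both sides of the exposed library, 4 at least 2-fold above it and 3 at least 2-fold below. Mgl2, a macrophage lectin receptor, was 4.97-fold above control (4.26 to 5.83). Of the 3 measured resistin-like genes, Retnla and the neutrophil gene Retnlg (4.48-fold, 4.07 to 4.92) were higher and Retn, a fat hormone gene in mice, was lower.

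Genes of resident and recruited macrophages were also above control. Alveolar macrophage genes were higher in 10 of 18 and lower in 1, with a median of 1.12 (0.65 in the exposed library). The lower one was Fabp4, a lipid carrier that is also a fat gene, at 176 CPM in control and 23.1 in the inhibitor library. Krt79, a keratin expressed by alveolar macrophages, was 6.77-fold above control (5.56 to 8.31), and the integrin Itgax 3.93-fold (3.65 to 4.24). Lipid-associated macrophage genes were higher in 10 of 18, with a median of 1.35. Mmp12, macrophage elastase, was at 5.59 CPM in control, 132 with PM10, 188 in the exposed library, 383 in the inhibitor library and 214 with Dex (68.4-fold, 55.9 to 84.5). Gpnmb, Trem2 and the collagen-degrading protease Ctsk were 5.69-fold (4.96 to 6.54), 4.96-fold (3.84 to 6.48) and 5.83-fold (5.24 to 6.50) above control. Monocyte and interstitial macrophage genes were higher in 10 of 20, with a median of 1.04 against 1.40 in the exposed library. Ms4a7 led that list at 8.80-fold (6.20 to 12.8), and Cd14, the endotoxin co-receptor, was 3.16-fold above control (2.81 to 3.57) where the exposed library had 148 CPM and the inhibitor library 72.7.

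**Figure D3:**
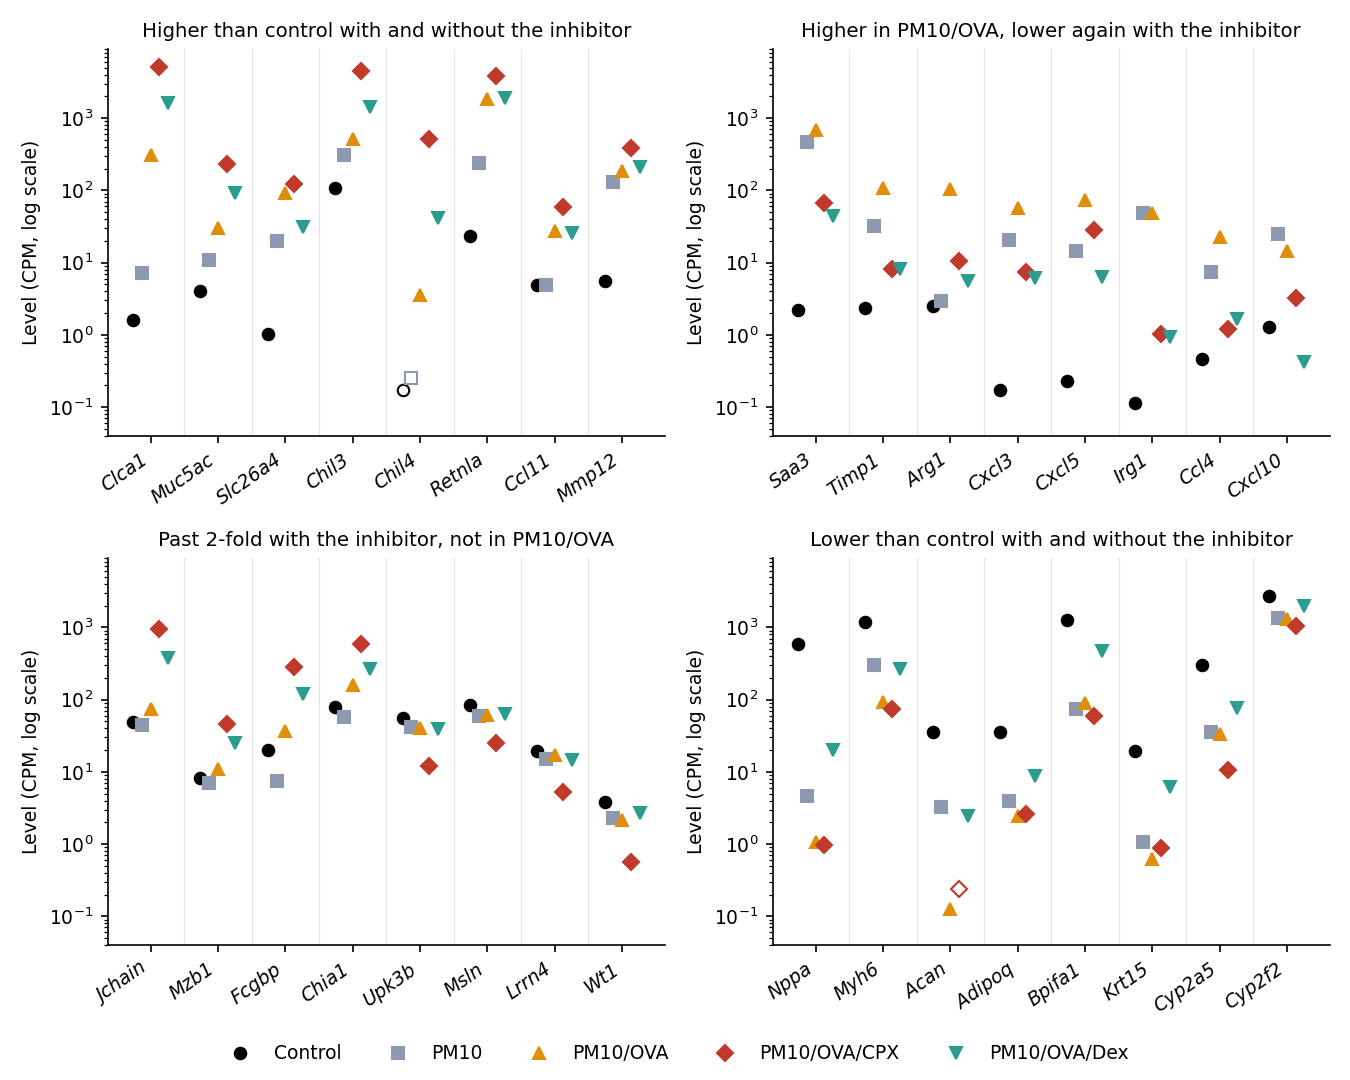
Levels in CPM (log axis) of 32 named genes in the 5 libraries, 1 point per library, grouped by how they stood against control. Open symbols mark 0 counts and are drawn at the level of 3 counts. Genes of the upper left panel are highest in PM10/OVA/CPX, and those of the upper right panel, among them Saa3 and Timp1, lie below PM10/OVA there.

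Saa3, Timp1 and Lcn2, genes of acute inflammation, stayed above control and lay below the exposed library. Saa3, which encodes a serum amyloid A made in inflamed tissue (chromosome 7, 46711998 to 46715700), was at 2.19 CPM in control, 463 with PM10, 694 in the exposed library, 67.0 in the inhibitor library and 44.7 with Dex. It was still 30.6-fold above control (22.1 to 43.5), but 10.4-fold below the exposed library (9.65 to 11.1). Timp1, an inhibitor of metalloproteinases (chromosome X, 20870166 to 20874735), was at 2.36 CPM in control, 32.6 with PM10, 108 in the exposed library, 8.14 in the inhibitor library and 8.16 with Dex, leaving 3.45-fold (2.38 to 5.08) of a 45.6-fold exposure difference. Lcn2, an iron-binding antibacterial protein, was at 68.6 CPM in control, 1390 in the exposed library and 716 in the inhibitor library (10.4-fold above control, 9.83 to 11.1). Of 18 measured acute-phase and complement genes, 9 were higher with the inhibitor and 12 in the exposed library, with medians of 0.95 and 1.54. The complement genes C1qa, C1qb and C1qc, which macrophages make, were between 2.94-fold and 3.81-fold above control.

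Neutrophil-attracting chemokines kept their direction at smaller ratios. Of 9 measured members, 6 were higher with the inhibitor and 7 in the exposed library, medians were 1.42 and 2.26, and 5 were at least 2-fold below the exposed library. Cxcl5, made by epithelium, was at 0.231 CPM in control, 14.4 with PM10, 73.4 in the exposed library, 28.0 in the inhibitor library and 6.22 with Dex (ratio 122, interval 47.0 to 448, on 4 counts in control). Cxcl3 was at 0.173 CPM in control, 20.3 with PM10, 57.7 in the exposed library, 7.51 in the inhibitor library and 6.14 with Dex (ratio 43.4, interval 14.4 to 214, on 3 counts in control). Cxcl2 was at 0.115 CPM in control, 5.22 with PM10, 18.5 in the exposed library, 1.84 in the inhibitor library and 1.43 with Dex (ratio 15.9, interval 3.94 to 139, on 2 counts in control). Control was lowest for all 3 genes and the exposed library highest. Cxcl15, a chemokine that lung epithelium makes constitutively, differed from these: at 939 CPM in control, 2107 in the exposed library and 2595 in the inhibitor library it was highest with the inhibitor.

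The promoters of Cxcl2 and Cxcl3 are shown because these chemokine genes of chromosome 5 had the same order of libraries and both windows hold an NF-kB site. RefSeq gives the 250 bases before the start, on GRCm38, as chr5:90903649-90903898 for Cxcl2 and chr5:90785851-90786100 for Cxcl3, both on the plus strand. Capitals mark matches to GGGANTTTCC, searched on both strands.
Cxcl2 promoter: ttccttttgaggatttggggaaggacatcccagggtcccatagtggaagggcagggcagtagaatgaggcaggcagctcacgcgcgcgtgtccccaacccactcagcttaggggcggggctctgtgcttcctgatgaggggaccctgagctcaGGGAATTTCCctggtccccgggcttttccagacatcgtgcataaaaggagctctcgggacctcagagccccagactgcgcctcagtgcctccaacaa
Cxcl3 promoter: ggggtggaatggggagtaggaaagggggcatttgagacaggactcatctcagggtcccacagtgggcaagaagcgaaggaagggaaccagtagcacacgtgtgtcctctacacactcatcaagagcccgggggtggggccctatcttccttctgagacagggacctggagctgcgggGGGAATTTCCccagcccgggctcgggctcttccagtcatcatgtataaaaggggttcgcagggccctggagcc
The matches began 97 bases before the Cxcl2 start and 73 bases before the Cxcl3 start, and 0.356% of the 32851 promoters held this motif. This pair was shown for its matches, so the share is a description only. The windows were 54.7% identical. Between the transcripts, 5.35% of the 50-base words of Cxcl2 occur in Cxcl3.

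Of 18 measured neutrophil genes, 12 were higher with the inhibitor, 11 of them also in the exposed library, with medians of 1.29 and 1.76. S100a8, a calcium-binding alarm protein of neutrophils, was at 33.0 CPM in control, 34.5 with PM10, 130 in the exposed library, 107 in the inhibitor library and 47.5 with Dex (3.25-fold, 2.95 to 3.59). Clec4d, a lectin receptor of myeloid cells, was 4.07-fold above control (2.96 to 5.69), at 12.2 CPM where the exposed library had 52.2. Ltf, lactoferrin, was the lower member, at 410 CPM in control and 79.0 in the inhibitor library, and is also a product of airway glands.

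Monocyte-attracting chemokines and receptors were higher in 8 of 13 with the inhibitor and 10 of 13 without it, with medians of 1.33 and 2.70. Ccl6 and Ccl9, chemokines of myeloid cells, were 5.04-fold (4.86 to 5.23) and 5.22-fold (4.66 to 5.87) above control. Ccl6 was at 701 CPM in the exposed and 1066 in the inhibitor library, and Ccl9 at 201 and 113 CPM. Ccl7 was at 0.404 CPM in control, 22.3 in the exposed and 2.79 in the inhibitor library. Among 11 measured cytokines of the interleukin-1, interleukin-6, TNF and interleukin-17 branch, 5 were higher with the inhibitor and 7 in the exposed library, with medians of 0.54 and 1.21. Il1b, interleukin-1 beta, was at 16.5 CPM in control, 54.4 with PM10, 133 in the exposed library, 45.4 in the inhibitor library and 30.6 with Dex (2.75-fold, 2.38 to 3.18). Its natural antagonist Il1rn kept 5.23-fold (4.31 to 6.37) of a 24.6-fold exposure difference.

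Leaving Chl1 aside, 203 exposure-higher genes lay under 2-fold above control on the log2(CPM + 1) scale with the inhibitor, of which 52 were also at least 2-fold below the exposed library and 151 lay within 2-fold of it. The 10 with the largest exposure ratios among the 52 are named here. Irg1 (now named Acod1), an itaconate-producing enzyme of activated macrophages (chromosome 14, 103046977 to 103056573), was at 0.115 CPM in control, 49.0 with PM10, 49.0 in the exposed library, 1.04 in the inhibitor library and 0.925 with Dex. The inhibitor library was 47.2-fold below the exposed one (27.4 to 89.0) and had 13 counts against 2 in control. Ccl4, a macrophage chemokine, was at 0.461 CPM in control, 7.37 with PM10, 22.5 in the exposed library, 1.20 in the inhibitor library and 1.68 with Dex. Cxcl10, an interferon-induced chemokine for T cells, was at 1.27 CPM in control, 25.2 with PM10, 14.3 in the exposed library, 3.19 in the inhibitor library and 0.420 with Dex. The other members were Ccl3, Cxcl9, Hpx, Gpr84, Il1f9, Il4i1 and Il1r2, with inhibitor levels from 0.878 to 8.22 CPM. All 10 stayed above control, from 2.13-fold for Il4i1 to 9.0-fold for Irg1 in CPM, while their log2(CPM + 1) ratios to control were between 0.59 and 0.92. They are under the limit of 1 because 1 CPM is added to low levels before the ratio is taken.

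Interferon-response genes were near control in the inhibitor library, with 1 of 36 higher (Mx1, an antiviral GTPase, at 1.61 CPM in control and 6.47) against 8 in the exposed library. Their summed level was 1224 CPM in control, 4263 with PM10, 1603 in the exposed library, 1388 in the inhibitor library and 939 with Dex. The PM10 library had the highest sum. Irf7, a transcription factor of this response, was at 26.9 CPM in control, 452 with PM10, 42.6 in the exposed library and 43.5 in the inhibitor library.

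Some plasma cell genes passed the limit with the inhibitor and not with exposure alone. Of 13 measured members, 4 were higher than control with the inhibitor and none in the exposed library, although the medians were 0.40 and 0.37. Jchain, which joins secreted IgA and IgM (chromosome 5, 88519809 to 88527891), was at 49.6 CPM in control, 44.5 with PM10, 74.4 in the exposed library, 942 in the inhibitor library and 377 with Dex (19.0-fold, 17.7 to 20.4). Mzb1, a chaperone of antibody assembly, was at 8.19 CPM in control, 6.96 with PM10, 10.9 in the exposed library, 45.8 in the inhibitor library and 25 with Dex (5.59-fold, 4.64 to 6.76). The libraries of both treatments were the highest for these genes. Derl3 and Sec11c, proteins of the secretory pathway, were 3.79-fold (2.32 to 6.41) and 2.12-fold (1.91 to 2.35) above control. In the exposed library they were 2.19-fold (1.30 to 3.78) and 1.84-fold (1.67 to 2.04) above it. Derl3 was under the limit there only after 1 CPM is added. Pigr, the epithelial receptor that carries IgA and IgM into the airway, was at 130 CPM in control, 424 with PM10, 576 in the exposed library, 1093 in the inhibitor library and 634 with Dex (8.43-fold, 8.07 to 8.82).

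Other lymphocyte genes stayed within 2-fold of control on the log2(CPM + 1) scale with few exceptions. Some low genes passed 2-fold in CPM only. Icos of the T cell list was 2.10-fold above control (1.53 to 2.89). Cst7 of the cytotoxic list was 3.85-fold above it (1.74 to 9.37). Of 14 measured B cell genes none was higher or lower, with a median of -0.19 (0.27 in the exposed library), and Cd79a, a chain of the B cell receptor, was at 46.9 CPM in control and 34.7 with the inhibitor. Of 13 cytotoxic and natural killer cell genes none passed the limit on that scale, with a median of -0.15. The killing protein gene Prf1 was at 9.86 and 4.79 CPM (2.06-fold below control in CPM, 1.53 to 2.81). Among 19 T cell genes 1 was higher, the inhibitory receptor gene Ctla4 at 1.27 and 3.67 CPM, and the median was 0.34. Of 10 lymphoid tissue chemokines and receptors 1 was higher, Ccl20, at 0.922 and 3.11 CPM. Class II antigen presentation genes had a median of 0.88 with 2 of 13 past 2-fold, the protease Ctss (3.61-fold, 3.47 to 3.76) and the class II chain H2-Eb1 (2.07-fold, 1.98 to 2.16). Of 15 dendritic cell genes 3 were higher, the transcription factor gene Batf3, the chemokine receptor gene Xcr1 and Ccl22. Cell cycle genes had a median of 0.69, close to the 0.65 of the exposed library, with 4 of 30 higher, among them Birc5 (4.09-fold, 2.42 to 7.16) and Cdk1 (2.57-fold, 1.79 to 3.73).

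Besides the plasma cell and mucus genes, the 10 genes furthest above control that were not exposure-higher included Scin, an actin-severing protein (3.29 CPM in control, 2.21 in the exposed library, 20.0 in the inhibitor library), and Capn9, a digestive-tract calpain with no count in control, 0.946 CPM in the exposed library and 11.7 CPM with the inhibitor. With the floor of 3 counts in control, Capn9 was at least 5.47-fold higher in the exposed library, with an exact lower limit of 3.92. Its ratio there was under 2-fold only after 1 CPM is added. Cxcr6, a chemokine receptor of tissue lymphocytes, was 4.17-fold above control (3.21 to 5.47). H2-Q7 and H2-Q2, class I histocompatibility genes with near-identical relatives, were at 4.23 and 44.4 CPM with the inhibitor. H2-Q7 had no count in control and 0.820 CPM in the exposed library (at least 4.74-fold higher with the same floor, exact lower limit 3.33). Amd1, a polyamine synthesis enzyme, was at 0.0577 CPM in control, 0.0828 with PM10, 0.0631 in the exposed library, 22.2 in the inhibitor library and 0.0841 with Dex, 278 counts against 1. Of the 50-base words of its transcript, 86.1% also occur in Amd2, and the sum of Amd1 and Amd2 was 96.3 CPM in control, 93.2 with PM10, 108 in the exposed library, 81.2 in the inhibitor library and 104 with Dex. The single value of Amd1 is therefore uncertain, and the sum was not higher with the inhibitor.

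Of 14 measured club cell genes 4 were lower with the inhibitor and 3 in the exposed library, with medians of -0.44 and -0.54. Cyp2a5, a cytochrome P450 of airway epithelium, was at 297 CPM in control, 35.5 with PM10, 33.2 in the exposed library, 10.6 in the inhibitor library and 76.7 with Dex (28.0-fold below control, 23.6 to 33.5). Cyp2f2, a P450 that marks club cells, was at 2704 CPM in control, 1346 with PM10, 1297 in the exposed library, 1049 in the inhibitor library and 1997 with Dex (2.58-fold below, 2.53 to 2.63). Control was the highest library for both. Scgb3a2, a secretoglobin, passed 2-fold with the inhibitor and not in the exposed library, at 603 CPM in control, 317 in the exposed library and 264 in the inhibitor library.

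Large-airway, gland and basal cell genes were lower in 5 of 11 and higher in 2, Pigr and Tff2. Bpifa1, an antimicrobial protein of upper airways and glands, was at 1264 CPM in control, 74.5 with PM10, 88.8 in the exposed library, 60.1 in the inhibitor library and 464 with Dex (21-fold below, 19.5 to 22.6). The basal cell keratin Krt15 was at 19.6 CPM in control and 0.878 in the inhibitor library, and Krt5 at 6.57 CPM and no count. These genes mark the large airways, where cartilage also lies, and the cartilage list had its highest sum, 180 CPM, in control. How much large airway each lung piece held was not tested. Ciliated cell genes were within 1.5-fold of control in 17 of 20 members, with a median of -0.04, against -0.49 in the exposed library, and 17 of the 20 had a higher ratio with the inhibitor than without. Of 16 alveolar type 2 genes 4 were higher, among them Sftpd, a surfactant collectin, at 523 CPM in control, 1520 in the exposed and 1977 in the inhibitor library (3.78-fold, 3.69 to 3.87). Of 14 alveolar type 1 genes none passed 2-fold, and the median was -0.24.

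Some mesothelial genes passed the limit for lower genes with the inhibitor and not with exposure alone. Of 10 measured genes of this cell layer, which covers the lung surface, 4 were at least 2-fold below control in the inhibitor library and none in the exposed library, and all 10 had a ratio below 0, with a median of -0.78 against -0.23. Upk3b, a surface protein of mesothelium (chromosome 5, 136038496 to 136046487), was at 54.8 CPM in control, 41.7 with PM10, 40.7 in the exposed library, 12.2 in the inhibitor library and 39.3 with Dex (4.49-fold below, 3.78 to 5.36). Msln, mesothelin, was at 85.4 CPM in control, 60.1 with PM10, 61.9 in the exposed library, 24.7 in the inhibitor library and 62.4 with Dex (3.46-fold below, 3.06 to 3.92). Lrrn4 and Wt1, a membrane protein and a transcription factor of mesothelium, were 3.68-fold (2.82 to 4.86) and 6.81-fold (3.13 to 17.6) below control. For these 4 genes the inhibitor library was the lowest of the 5. The exposed library was also below control for Upk3b (1.35-fold, 1.22 to 1.49), Msln (1.38-fold, 1.27 to 1.5) and Wt1 (1.77-fold, 1.16 to 2.77). How much lung surface each lung piece held was not tested.

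Others of the 10 genes furthest below control that were not exposure-lower were Pkhd1l1 (20.4 CPM in control, 15 in the exposed library and 3.19 in the inhibitor library), the phospholipase gene Pla2g5 (3.52, 1.32 and 0.0798 CPM), the sarcoglycan gene Sgcd (9.11, 5.24 and 2.00 CPM), the hyaluronan-degrading Cemip, the opioid precursor Penk and the muscle actin Acta1. The last 3 were between 3.23 and 3.75 CPM in control and at 0.479 CPM in the inhibitor library, which is 6 counts each. In the exposed library Cemip, Penk and Pla2g5 were 2.70-fold (1.64 to 4.60), 2.70-fold (1.60 to 4.73) and 2.65-fold (1.59 to 4.59) below control. These genes were under the limit there only after 1 CPM is added. Acta1 was at 1.70 CPM in the exposed library.

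Genes of fibrosis, which the study's title names, were few among the higher genes, which made up 2.73% of all measured genes. Of 29 measured fibrillar collagen and matrix genes none was higher with the inhibitor and 6 were lower, 5 of them also in the exposed library, and the median was -0.01. The lower ones were the matrix proteins Thbs2 (4.60-fold, 3.30 to 6.56), Lum (3.15-fold, 2.72 to 3.66), Fbln2, Dcn, Fbln1 and Col12a1. Dcn, decorin, was at 321 CPM in control, 174 with PM10, 125 in the exposed library, 127 in the inhibitor library and 219 with Dex. Of 25 TGF-beta and myofibroblast genes none was higher or lower, with a median of -0.20, and Inhba, an activin subunit, was at 2.08 CPM in control, 11.8 in the exposed and 4.71 in the inhibitor library. Of 20 metalloproteinases and inhibitors 3 were higher with the inhibitor, Mmp12, Timp1 and the neutrophil collagenase Mmp8, against 8 in the exposed library. None of 17 fibroblast genes passed 2-fold (median -0.35). Of 15 smooth muscle genes 2 were lower, Pln, which is also a heart gene, and Cnn1 (median -0.48). Of 22 endothelial genes 1 was higher, the venule chemokine receptor Ackr1 (median -0.05), and Selp, the leukocyte-rolling receptor P-selectin, was at 4.61 CPM in control, 22.0 in the exposed and 7.43 in the inhibitor library.

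Many of the lowest genes of the whole comparison were those of bordering tissues, and the airway genes Cyp2a5 and Bpifa1 were also among the 15 lowest. Heart-muscle genes were lower in 18 of 19 with a median of -3.43, fat genes in 14 of 15 with -2.67, cartilage genes in 9 of 11 with -2.67 and skeletal-muscle genes in 3 of 6 with -0.92. Nppa, the atrial hormone precursor (chromosome 4, 148000722 to 148002079), was at 595 CPM in control, 4.64 with PM10, 1.07 in the exposed library, 0.958 in the inhibitor library and 19.8 with Dex (621-fold below, 355 to 1202). Myh6, the cardiac myosin heavy chain, was at 1182 CPM in control, 304 with PM10, 92.3 in the exposed library, 75.1 in the inhibitor library and 264 with Dex. The cartilage proteoglycan gene Acan was at 35.6 CPM in control, 3.31 with PM10, 0.126 in the exposed library, no count in the inhibitor library and 2.44 with Dex, at least 149-fold below control with an exact lower limit of 121. Adipoq, the fat hormone adiponectin, was at 36.0 CPM in control and 2.63 in the inhibitor library. The 4 other libraries were all below control for these genes. Several genes of the 15 lowest that were on none of these lists are also known from muscle, fat or cartilage, among them Col10a1, Car3 and Myom2.

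Of the exposure-lower genes, 87 lay under 2-fold below control with the inhibitor. Of these, 59 were still at least 1.5-fold below control, 77 lay within 2-fold of the exposed library, and 10 were at least 2-fold above it. Zbtb16, a transcription factor that glucocorticoids induce (chromosome 9, 48654297 to 48836222), was at 25.9 CPM in control, 15 with PM10, 6.31 in the exposed library, 22.2 in the inhibitor library and 21.2 with Dex. Scara5, a ferritin receptor of fibroblasts (chromosome 14, 65666403 to 65764826), was at 28.0 CPM in control, 17.4 with PM10, 5.99 in the exposed library, 14.4 in the inhibitor library and 29.1 with Dex. Both were lowest in the exposed library. Chad, a cartilage matrix protein, was at 52.4 CPM in control, 19.0 with PM10, 21 in the exposed library, 47.6 in the inhibitor library and 57.0 with Dex. The others were Atp6v1b1, Fut9, Clca3b, Trnp1, Ces1f, Lypd2 and C1qtnf3, each between 2.19 and 28.9 CPM in control and within 1.5-fold of it in the inhibitor library.

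For the stress, clock and metabolic lists here and below, 2.73% of all measured genes were higher and 2.99% lower. A single higher gene in the longer of these lists is close to that share. Of 21 endoplasmic reticulum stress genes 1 was higher, Sdf2l1 (2.39-fold, 2.08 to 2.76), and the median was 0.27 against 0.75 in the exposed library. Of 19 NRF2 target genes 1 was higher, the cystine transporter Slc7a11, at 3.98 CPM in control, 36.0 with PM10, 65.7 in the exposed library, 21.4 in the inhibitor library and 18.0 with Dex. Hmox1, the heme-degrading enzyme, was at 27.7 CPM in control, 77.3 with PM10, 153 in the exposed library, 43.3 in the inhibitor library and 40.0 with Dex, so its exposure difference of 5.52-fold came to 1.56-fold (1.38 to 1.77). Of 16 metallothionein, iron and heme genes 5 were higher, among them the metal-binding Mt2 (2.12-fold, 1.75 to 2.57), and 1 was lower, Hamp, an iron hormone gene that heart also expresses. Of 9 aryl hydrocarbon receptor targets 1 was higher, Lpcat2. Cyp1b1, a P450 of this pathway, was at 12.2 CPM in control, 26.1 in the exposed and 11.1 in the inhibitor library.

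Circadian clock genes were lower in 4 of 18, the clock repressor Per1 (2.49-fold, 2.30 to 2.70), Ciart, Dbp and Hlf, with a median of -0.52 against -0.74 in the exposed library. The sources used here do not give the hour at which lungs were taken. Of 20 immediate-early and heat-shock genes 6 were lower and 1 higher. Hspa1a and Hspa1b, near-identical heat-shock genes, summed to 81.1 CPM in control, 122 with PM10, 14.1 in the exposed library, 15.6 in the inhibitor library and 324 with Dex, so the inhibitor library stayed at the level of the exposed one. The immediate-early transcription factor gene Fosb was 5.43-fold below control (3.76 to 8.06). Glucocorticoid-responsive genes were higher in 3 of 18 and lower in 3, with a median of -0.19. Fkbp5, a chaperone that glucocorticoids induce, was at 14.9 CPM in control and 30.8 in the inhibitor library, and Errfi1 at 215 and 87.1 CPM. Of 22 glycolysis and hypoxia genes 1 was higher, Hk3, and of 18 cholesterol synthesis genes 1, Mvd, with medians of -0.05 and 0.37. Of 7 erythroid genes none passed 2-fold (median -0.19). None of 18 housekeeping genes passed 2-fold, and their median was 0.21.

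**Figure D4:**
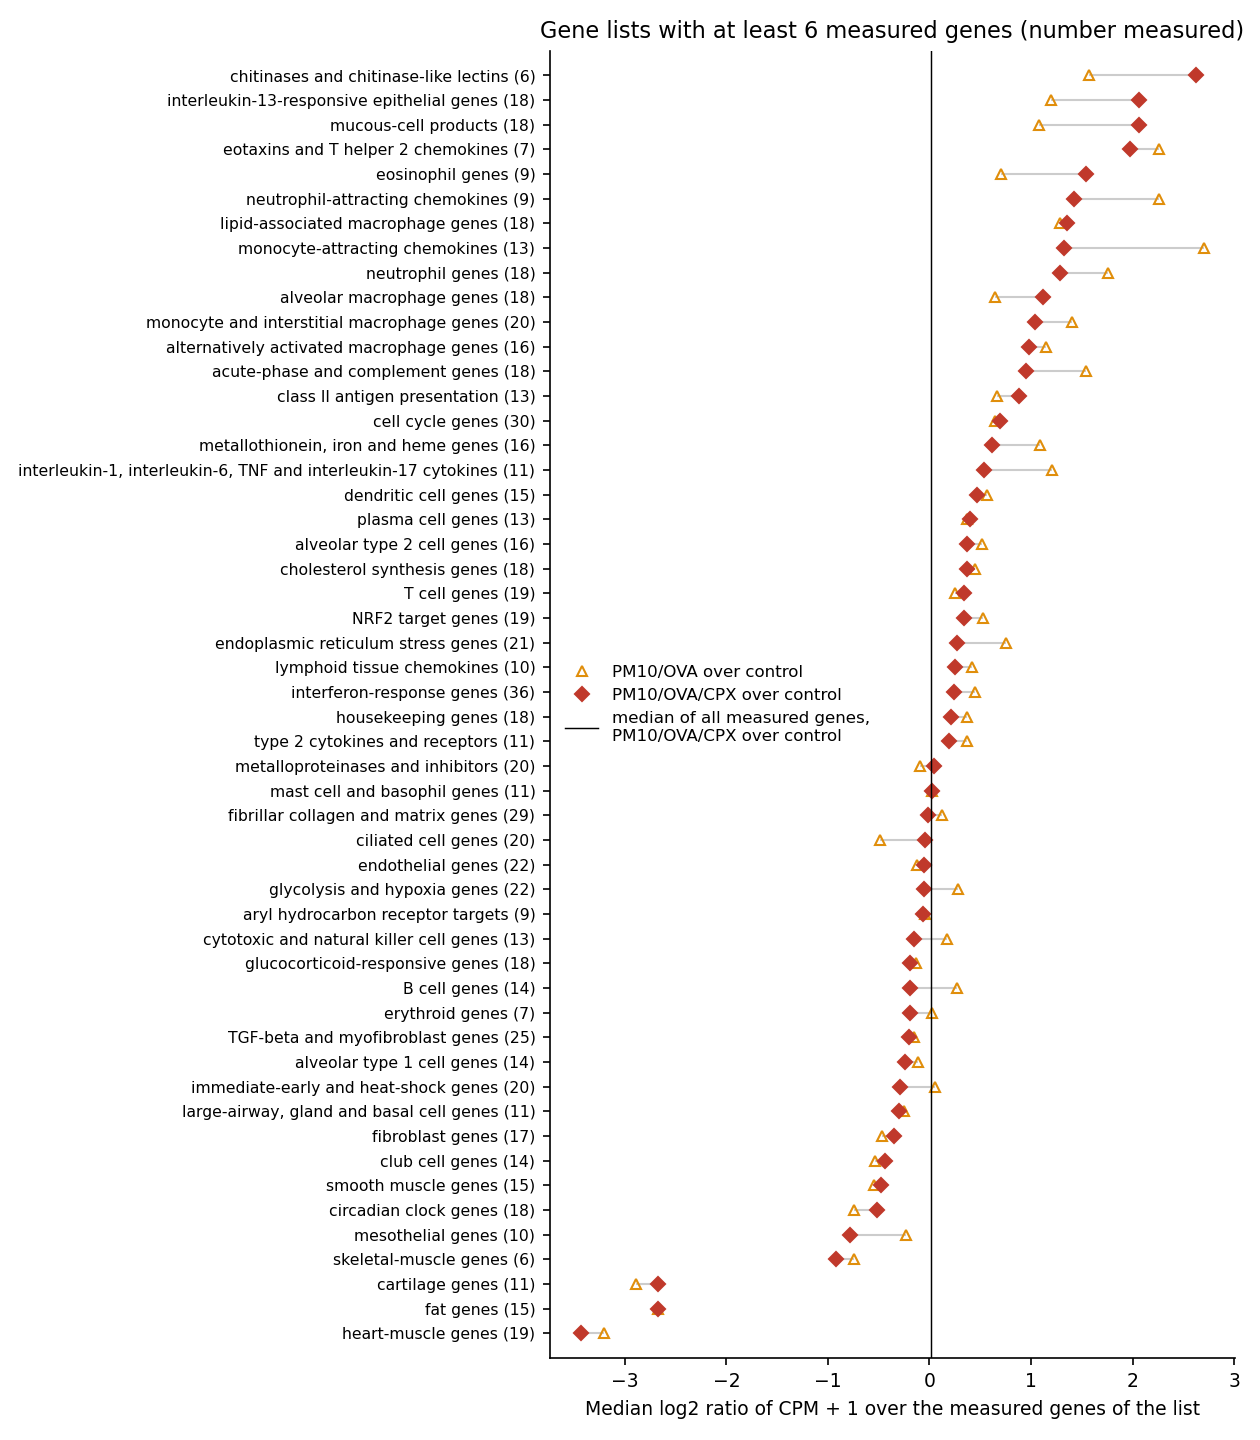
Median log2 ratio of CPM + 1 to control (horizontal axis) over the measured genes of each list with at least 6, for the inhibitor library (filled diamonds) and the exposed library (open triangles), with the number of measured genes in brackets and a vertical line at 0.02, the median of all measured genes. Chitinase and mucus lists lie further from control with the inhibitor than without, monocyte- and neutrophil-attracting chemokines nearer, and heart, fat and cartilage lists lie lowest in both.

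Across 14189 genes with an annotated transcript, the log2 ratio of the inhibitor library to control was lower for longer transcripts (Spearman rho -0.37, a description across genes that share both libraries and their depth). With the trend of length and GC content taken out, the list median moved from 1.33 to 1.0 for monocyte-attracting chemokines, from -0.01 to 0.23 for matrix genes and from 0.21 to 0.08 for housekeeping genes. Of 321 named genes, 81 also moved. Whether length itself caused a single difference was not tested.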

How the data were processed

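RNA of 5 whole-lung libraries was sequenced. Trizol was used for extraction, and 1.3 ug of total RNA entered a directional library kit, per the labels' protocols. TopHat aligned the reads to mm10, per the submitters' processing notes. Aligner version, counting tool, annotation and strand setting were not given in the sources used here, so values of overlapping, antisense and near-identical genes are uncertain. The files deposited by the authors hold whole-number counts for 23183 gene symbols per library, without normalization.

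Counts were scaled to CPM with TMM factors over the 5 libraries (edgeR 4.0.16, R 4.3.3). Ratios used log2(CPM + 1), a scale on which low genes differ less than in CPM. Folds have exact conditional 95% intervals (scipy 1.17.1), and a count of 0 was set to a floor of 3 counts. Calculations were tested on simulated data. Named genes were the 15 highest and 15 lowest ratios, the chitinase genes, up to 6 per list and 10 per class of exposure gene, and those nearest the 2-fold limit, leaving out predicted models, small RNAs and receptor segments. Genes named outside this rule are said to be so. One gene that the rule names is not reported here. The comparison and the 53 gene lists were chosen with earlier results of these data known. Coordinates come from GENCODE M21 (GRCm38, the assembly called mm10), and promoters from RefSeq, which held 5 of 7 genes looked up. Alternatives were other pseudocounts, scalings (among them DESeq2 1.42.0 size factors), filters, a stricter call and removal of the length and GC trend.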

Additional observations from a re-analysis of the deposited data

How the results depend on the processing

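No paired analysis was possible because each group has 1 library, and no library could be left out. With a pseudocount of 5 CPM the inhibitor library had 199 genes higher than control and 214 lower, with 130 exposure-higher and 172 exposure-lower genes remaining, and 199 and 175 without the bordering-tissue lists. With genes of at least 5 CPM on average, 222 were lower, 162 exposure-lower genes remained, and 194 were lower without those lists. A larger pseudocount shrinks ratios of low genes, and the stricter filter leaves 11994 genes. With a pseudocount of 0.25 CPM, CPM without TMM factors, DESeq2 size factors, no filter, the trend of length and GC removed, or a call only where the whole counting interval lay beyond 2-fold, all 6 counts stayed within 1.5 times their values. The share of exposure-higher genes that remained ran from 49.8% to 61.1%, and that of exposure-lower genes from 70.5% to 84.7%. The median of cytotoxic and natural killer cell genes turned from -0.15 to 0.01 with no filter, and those of chitinases and of eotaxins and T helper 2 chemokines moved from 2.63 to 1.25 and from 1.98 to 0.57. Removing the length and GC trend moved 23 of 53 list medians and 81 of 321 named genes. A pseudocount of 5 CPM moved 22 of the list medians and 72 of the named genes. Depth limits genes with few counts, as the intervals of Prg2, Cxcl2 and Irg1 show.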
